A study of Cricetulus griseus with 8 samples.

Results

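The enzymes of glycolysis, of the pentose phosphate pathway and of glycogen metabolism were examined in phagocytes that met dying cells. They were taken by name from a list, of which 37 symbols are reported here. Of these, 33 were found as written among the 26776 named genes of the deposited table. Tigar and Pygl stood in the table under LOC numbers and were matched again through their RefSeq gene IDs. Gpi1 and Gfpt1 had no row, and Gpi1 is the mouse name of Gpi, which was found. Of the 33 enzymes found by symbol, 32 were tested, having a mean over all libraries of 10 normalized counts or more, while the brain aldolase Aldoc, at 0 to 8 reads per library, was not.

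The phagocytes were LR73 cells, a Chinese hamster fibroblast line derived from ovary cells and used for its capacity to engulf dying cells, grown in alpha-MEM with serum. In 4 libraries the cells were kept alone, and in the other 4 they were cultured with apoptotic Jurkat cells, a human T cell line that the labels call lymphoma, which had received UV-C at 1500 mJ and a further 4 h in culture beforehand. The labels name no gene deletion and no drug, and the column names carry the prefix GFP, which the labels do not explain. The line is a single established cell line, the duration of the co-culture is not given in the sources used here, and the 4 libraries of a condition are described as biological replicates with no word on how the cultures were separated, so the p-values measure the spread between these libraries.

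As background, glycolysis splits glucose into pyruvate in the cytosol. Hexokinases trap glucose as glucose 6-phosphate, phosphofructokinase sets the pace of the upper steps, and the lower steps make ATP and NADH. Glucose 6-phosphate can also leave to the pentose phosphate pathway, which makes NADPH and ribose 5-phosphate, or to glycogen through glucose 1-phosphate, and fructose 6-phosphate can leave to hexosamines. Phagocytes that engulf dying cells are known to take up glucose and release lactate, and the series title names both.

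Sequencing depth, counted over named genes, was 22.7 to 29.7 M reads (M, mega) per library. Values are normalized counts, that is, reads divided by 1 size factor per library by the authors, and are not divided by gene length, so levels are compared between groups and not between genes. Of 17 fibroblast markers in the table, 12 averaged 10 normalized counts or more, with a summed level of 194056 to 198400 in cells alone and 221224 to 223272 in the co-cultures. Vim had the largest part of that sum, with means of 111964 and 130760. The list did not move as 1, with 7 of the 12 positive and 5 negative. Vim and Col6a1 were called higher and Dcn lower (16.7 and 8.33%, beside 6.36 and 5.31% of all tested genes). Thy1 and Tgfbi had no reads, and Col1a1 and Col1a2 averaged at most 1.41 normalized counts, so the line lacks some markers of tissue fibroblasts. Epithelial markers summed to 240 to 257 and 197 to 226 normalized counts, and myeloid markers to 46.5 to 82.5 and 51.4 to 73.6. Of the epithelial markers only Cdh1 averaged 10 normalized counts or more, at 242 alone and 206 in the co-cultures. It was called lower (limma adjusted p = 0.0439), a call lost with any library other than alone library 1 left out. T cell markers, 28 of 29 in the table, summed to 1764 to 1928 normalized counts in cells alone and 1658 to 1721 in the co-cultures, and Cd3d, Cd3g, Cd2, Lcp2 and Ubash3a had no reads at all. Tcf7 and Themis had the largest part of that sum, with means of 677 and 631 alone and 663 and 511 in the co-cultures. The 19 T cell markers with at most 5 reads over all alone libraries had 0 to 6 reads per alone library and 8 to 19 reads per co-culture library. These 19 were picked for few reads in cells alone, so their low alone values were set by the choice. The 7 T cell markers tested all had negative log2 fold changes, beside 6689 of all 13494 tested genes. They averaged 10.8 (Il2rg) to 677 (Tcf7) normalized counts in cells alone, so only markers also read in LR73 cells alone were tested. Themis (-0.303, limma adjusted p = 0.0112) and Cd28 (-0.665, adjusted p = 0.0385) were called lower, or 28.6%, beside 5.31% of all tested genes. The Cd28 call was not made by DESeq2 and was lost in most fits that left out 1 library. Reads of Jurkat RNA that fit a hamster enzyme could be counted under it, and their part in the values below was not tested. In bulk RNA, more transcript per cell and more cells that express a gene cannot be told apart.

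Alone library 1 stood apart from the rest of its group in these enzymes too. In it, 16 of the 32 tested enzymes had their highest and 10 their lowest alone value, with a median absolute distance of 0.10 on the log2 scale from the mean of the other alone libraries. The same distance was 0.03 to 0.06 for alone libraries 2 to 4 and 0.02 to 0.03 for the co-cultures. Over all tested genes, the median distance of alone library 1 was 0.168. That set holds genes down to a mean of 10 normalized counts, and its distance was not computed for the other libraries. It is therefore no like measure for these enzymes. Calls that move without this library are therefore given both ways.

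**Figure D1:**
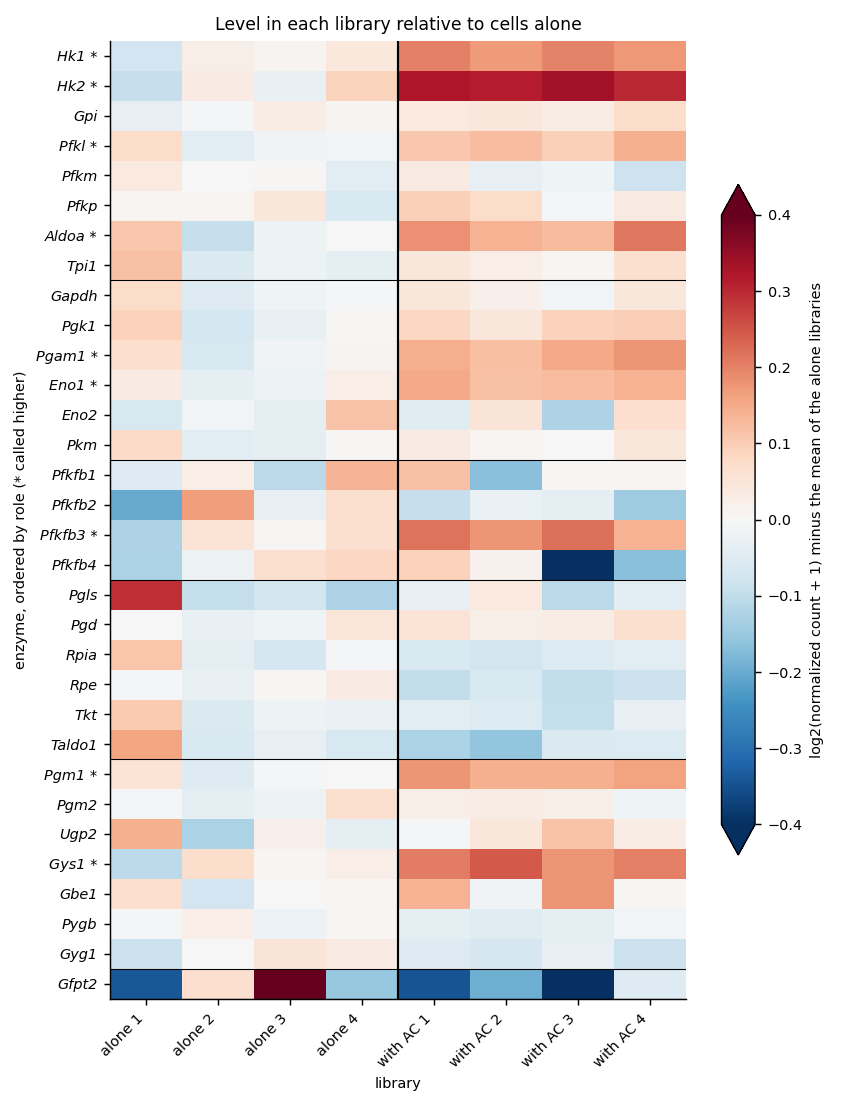
Level of each tested enzyme in each library, as log2(normalized count + 1) minus the mean of the 4 alone libraries, in rows ordered by role and columns by library (AC, apoptotic cells), with stars on enzymes called higher by limma. The co-culture columns of Hk2 are the deepest red of the glycolytic rows, and alone library 1 stands out for Pgls, with 1646 normalized counts against 1233 to 1275 in the other alone libraries.

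With apoptotic cells, 9 of the 32 tested enzymes rose and none fell (limma on all tested genes, adjusted p under 0.05). The risers were both hexokinases Hk1 and Hk2, Pfkl, Aldoa, Pgam1 and Eno1 of glycolysis, the regulator Pfkfb3, and Pgm1 and Gys1 of glycogen metabolism. The rises were small, from 8.45% for Pfkl to 24.7% for Hk2. The share called higher was 28.1%, beside 6.36% of all 13494 tested genes called higher and 5.31% called lower. Of the tested enzymes only Gfpt2 averaged under 100 normalized counts, while the tested genes reach down to 10. With the filter raised to 100, limma called 847 of 10774 genes higher, and again 9 of these enzymes. These enzymes and the other gene lists were picked when earlier results of these data were already known. Their shares of calls therefore describe the lists and do not test for enrichment. At an unadjusted p under 0.05 the count higher was also 9, and 1 enzyme, Rpe, was lower. At that level 1842 of all 13494 tested genes were higher and 1729 lower. Tigar, under its RefSeq gene ID, rose too and made 10 of 34 with the 2 enzymes matched again. The median log2 fold change of the 32 enzymes was 0.03, beside 0.001 over all tested genes, and 19 of 32 had a positive value, beside 6805 of 13494.

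The groups did not overlap, with all co-cultures above all alone libraries, in 10 of the 32 enzymes (11.4% of all tested genes), namely the 9 called and Gpi, and with all co-cultures below in 1, Rpe (9.72% of all tested genes). Without alone library 1, 11 enzymes were higher (13.4% of all genes tested that way) and 2 lower (12.5%), and all 9 were among the 11, which Tpi1 and Pgk1 complete. Leaving out alone library 3 reduced the count of 9 to 4, and leaving out co-culture 1, 2, 3 or 4 gave 3, 6, 5 or 5. Higher calls over all genes also fell in these fits. They went from 858 to 497 without alone library 3, and to 416, 482, 445 or 479 without co-culture 1, 2, 3 or 4. The authors' deposited table also gave 9 of these enzymes as higher and 0 as lower at an adjusted p under 0.05, the same 9. Together the 33 enzymes took 1.70, 1.59, 1.61 and 1.63% of the normalized counts of alone libraries 1 to 4 and 1.70, 1.67, 1.67 and 1.71% of those of co-cultures 1 to 4, so that alone library 1 lay within the co-culture range.

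**Figure D2:**
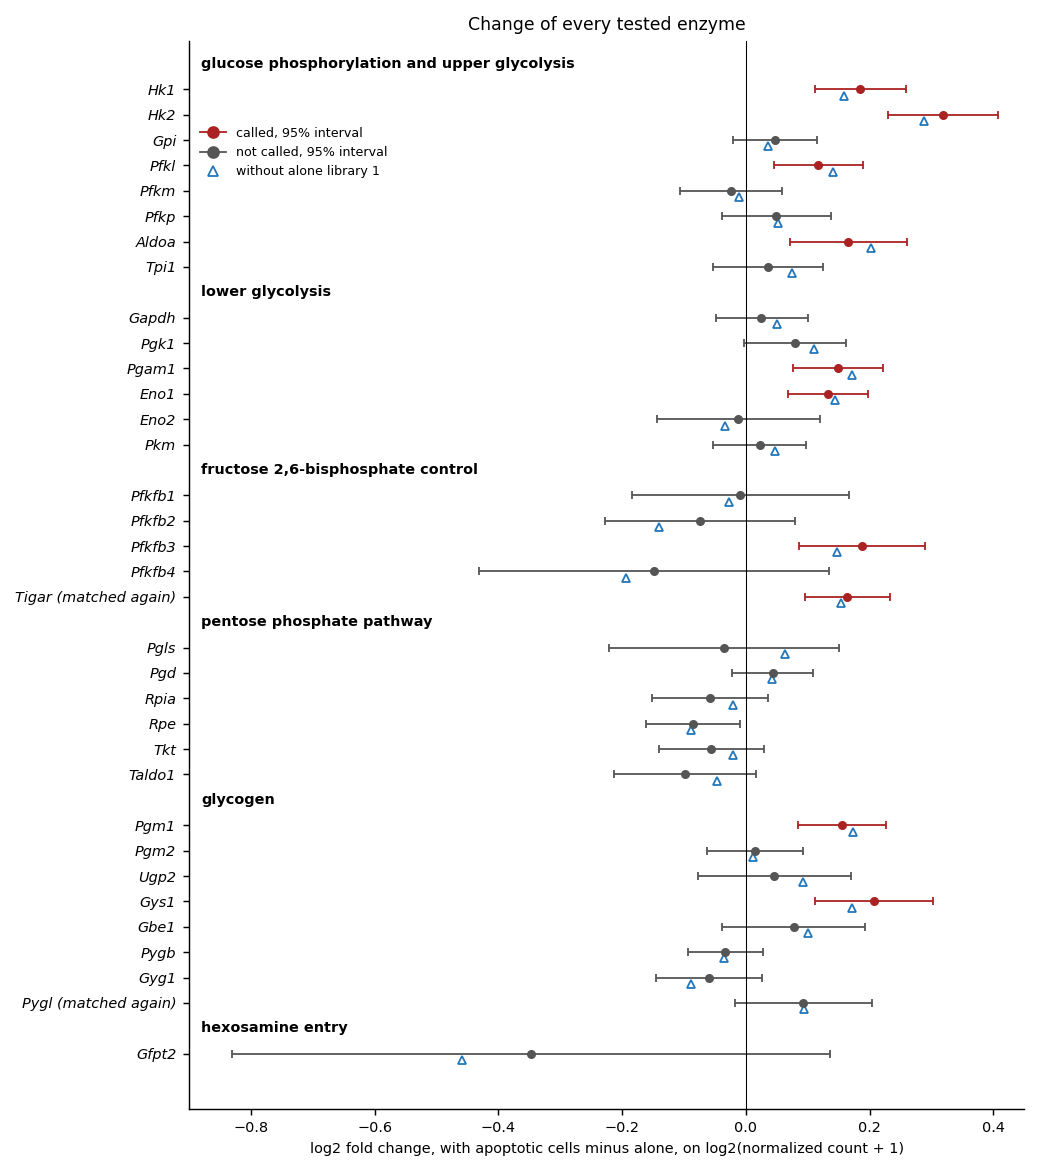
Log2 fold change with apoptotic cells over alone for each tested enzyme, grouped by role, with its 95% interval from limma (bars) and the value without alone library 1 (open triangles), and red where called. Hk2 has the highest value, 0.32, and the pentose phosphate enzymes lie between -0.10 and 0.04.

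Hexokinases, which phosphorylate glucose as it enters the cell, both rose. Hk2, the inducible hexokinase, stood at 3645, 3973, 3810 and 4132 normalized counts in alone libraries 1 to 4 and at 4865, 4830, 4900 and 4791 in co-cultures 1 to 4. The co-cultures lay close together and all above the alone libraries. Its log2 fold change was 0.32 (SE 0.04, limma adjusted p = 0.000846), a rise of 24.7% (95% interval 17.3 to 32.6%). Hk1, the hexokinase found in most tissues, stood at 6956, 7454, 7398 and 7559 alone and at 8435, 8249, 8420 and 8271 in the co-cultures. Again the groups did not overlap, and alone library 1 was the lowest of both genes. The log2 fold change of Hk1 was 0.185 (SE 0.03, limma adjusted p = 0.00594). Both stayed called with any 1 library left out, with limma adjusted p up to 0.00627 for Hk2 and 0.0297 for Hk1, and without alone library 1 the log2 fold changes were 0.29 and 0.16.

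Of the 3 phosphofructokinase genes, which encode the committed step of glycolysis, only the liver type Pfkl passed the threshold. Pfkl stood at 12754, 11738, 12002 and 12019 normalized counts alone and at 13073, 13202, 12944 and 13370 in the co-cultures. Alone library 1 was the highest of its group and lay just under the lowest co-culture. The log2 fold change was 0.12 (SE 0.03, limma adjusted p = 0.0418), or 0.14 without alone library 1 (adjusted p = 4.44e-05). This call was lost with any of the other 7 libraries left out (adjusted p = 0.0816 to 0.122), by edgeR (adjusted p = 0.052) and under TMM scaling (adjusted p = 0.0679), but held by DESeq2 (adjusted p = 0.0248). The muscle type Pfkm averaged 1976 ± 47.9 and 1943 ± 65.1 normalized counts (SD, n = 4 per group) and the platelet type Pfkp 1288 ± 38.8 and 1332 ± 40.3. Their intervals, -7.16 to 4.15% and -2.67 to 10.0%, overlap that of Pfkl, 3.17 to 14%.

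Aldoa, the aldolase that cleaves fructose 1,6-bisphosphate, stood at 26825, 23345, 24519 and 24902 normalized counts alone and at 28251, 27378, 27163 and 28792 in the co-cultures. Alone library 1 was again the highest of its group and nearest to the co-cultures. Aldoa rose by 12.1% (log2 fold change 0.17, SE 0.04, limma adjusted p = 0.0314), or by 0.20 on the log2 scale without alone library 1 (adjusted p = 2.23e-06). Its call was lost without any of the other 7 libraries (adjusted p = 0.0608 to 0.0978). Gpi, which interconverts glucose 6-phosphate and fructose 6-phosphate, had values of 2781 to 2904 alone and 2905 to 2992 in the co-cultures, which do not overlap but differ by 3.31% (95% interval -1.44 to 8.29%, limma adjusted p = 0.359). Tpi1, the triose phosphate isomerase, averaged 16835 ± 949 and 17240 ± 301. In alone library 1 it was at 18235, above every co-culture, and in alone libraries 2 to 4 at 16159 to 16574, below every co-culture. The log2 fold change of Tpi1 was 0.04 (adjusted p = 0.601) with all libraries and 0.075 (adjusted p = 0.016) without alone library 1.

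**Figure D3:**
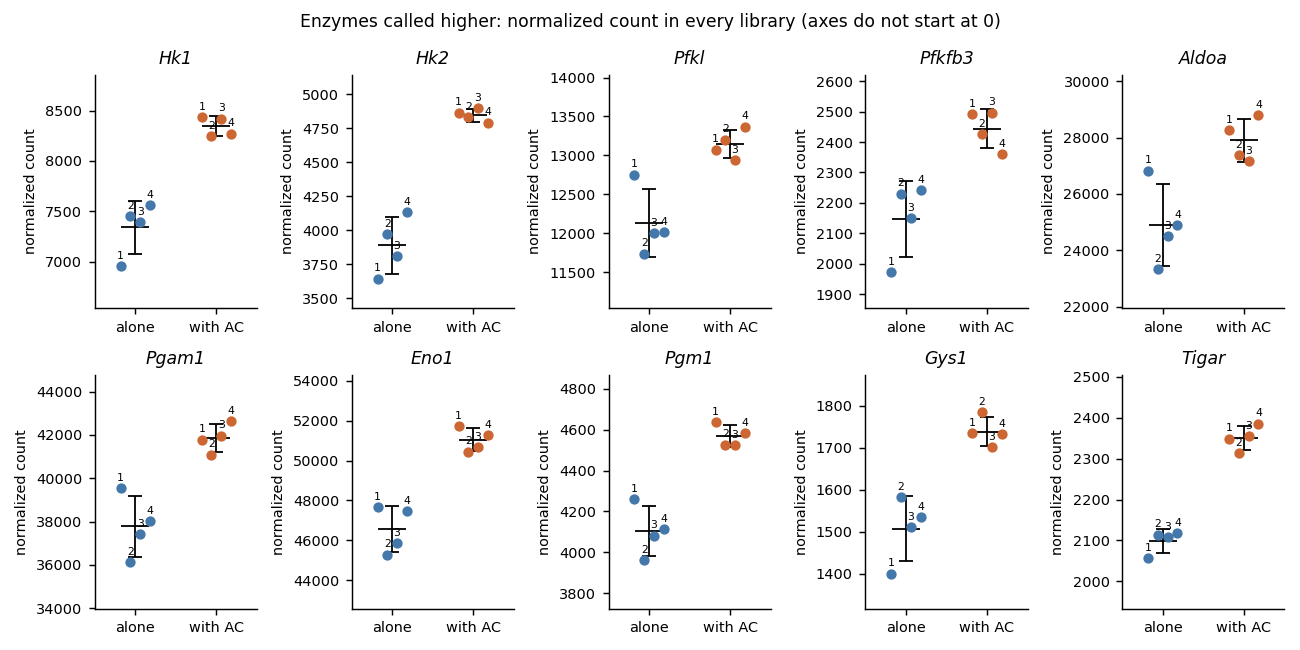
Normalized counts in every library (points, with library numbers), beside group means and SDs (n = 4), for the 9 enzymes called higher and for Tigar, on axes that do not start at 0. The co-cultures (AC, apoptotic cells) lie above all alone libraries in every panel, and alone library 1 is at an end of its group in each. It is the highest alone value for Pfkl (12754), Aldoa (26825), Pgam1 (39540), Eno1 (47664) and Pgm1 (4262). For Hk1 (6956), Hk2 (3645), Pfkfb3 (1971), Gys1 (1400) and Tigar (2056) it is the lowest.

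In lower glycolysis 2 of 6 tested enzymes rose. Pgam1, the phosphoglycerate mutase, stood at 39540, 36141, 37432 and 38017 normalized counts alone and at 41789, 41091, 41970 and 42645 in the co-cultures. The groups did not overlap, and the log2 fold change was 0.15 (SE 0.03, limma adjusted p = 0.0172), or 0.17 without alone library 1. Eno1, the ubiquitous enolase, stood at 47664, 45275, 45867 and 47456 alone and at 51719, 50450, 50681 and 51292 in the co-cultures. It rose by 9.62% (log2 fold change 0.13, SE 0.03, limma adjusted p = 0.0163). Both calls moved with single libraries. The Pgam1 call was lost without alone library 3 (adjusted p = 0.0609) or co-culture 1, 3 or 4 (adjusted p = 0.0577, 0.0544 and 0.0632), and the Eno1 call without alone library 3 (0.0641) or co-culture 1 or 4 (0.0657 and 0.0579).

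Gapdh, which makes NADH from glyceraldehyde 3-phosphate and often serves as a reference gene, stood at 90772, 83313, 85289 and 85873 normalized counts alone and at 89033, 87560, 85632 and 89039 in the co-cultures. Alone library 1 exceeded every co-culture and the groups overlapped. The difference was 1.78% (95% interval -3.34 to 7.18%, limma adjusted p = 0.664), and the log2 fold change of 0.025 became 0.050 without alone library 1 (adjusted p = 0.113). Pkm, the pyruvate kinase of most tissues, stood at 86583, 79723, 79995 and 82327 alone and at 84175, 82469, 82122 and 84748 in the co-cultures. It showed the same layout, with alone library 1 on top, and differed by 1.53% (95% interval -3.60 to 6.93%, limma adjusted p = 0.711), with 0.022 on the log2 scale against 0.047 without that library (adjusted p = 0.129). Pgk1, the phosphoglycerate kinase, ran from 19628 to 21974 alone and from 21241 to 22030 in the co-cultures, with alone library 1 at 21974 as the only alone value inside the co-culture range. Its log2 fold change of 0.08 (adjusted p = 0.204) became 0.11 (adjusted p = 0.001) without that library. Eno2, the neuronal enolase, averaged 633 ± 35.1 and 628 ± 38.6 (95% interval of the difference -9.48 to 8.61%).

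The bifunctional PFKFB enzymes make and break fructose 2,6-bisphosphate, the activator of phosphofructokinase, and Tigar breaks it. Pfkfb3, the isoform with the strongest kinase bias, stood at 1971, 2230, 2150 and 2241 normalized counts alone and at 2493, 2425, 2497 and 2360 in the co-cultures. The groups did not overlap, and alone library 1 was the lowest. Pfkfb3 rose by 13.9% (log2 fold change 0.19, SE 0.05, limma adjusted p = 0.0249), or by 0.15 on the log2 scale without alone library 1 (adjusted p = 0.000921). This call was lost without alone library 3 (adjusted p = 0.0695) or co-culture 1, 2 or 3 (adjusted p = 0.085, 0.0673 and 0.081). Tigar, named in the list but matched through RefSeq, stood at 2056, 2114, 2108 and 2117 alone and at 2349, 2314, 2356 and 2386 in the co-cultures. The groups were far apart for their spread. Its log2 fold change was 0.16 (SE 0.03, limma adjusted p = 0.00801), and the call held with any 1 library left out (adjusted p up to 0.0352).

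The other 3 PFKFB genes were not called. Pfkfb2, the heart type, was at 1540, 1988, 1731 and 1850 normalized counts alone and at 1661, 1739, 1724 and 1604 in the co-cultures. The difference of -0.07 on the log2 scale (adjusted p = 0.528) turned on alone library 1, the lowest of all 8, since without it Pfkfb2 was called lower (-0.14, adjusted p = 0.0117). Pfkfb1, the liver type, averaged 240 ± 17.6 and 239 ± 19.1. Pfkfb4 averaged 153 ± 10.4 and 140 ± 25.5, with co-culture 3 the lowest at 106. Pfkfb4 had only 96 to 181 reads per library, and its interval ran from -25.9 to 9.77%.

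None of the 6 pentose phosphate enzymes found by symbol was called in either direction, by limma with all libraries or without alone library 1, by edgeR or by DESeq2. Of the oxidative branch, which makes NADPH, Pgd, the 6-phosphogluconate dehydrogenase, stood at 7954, 7812, 7871 and 8248 normalized counts alone and at 8272, 8106, 8128 and 8328 in the co-cultures. Alone library 4 lay among the co-cultures, and the difference was 2.99% (95% interval -1.57 to 7.77%, limma adjusted p = 0.389). Pgls, the lactonase before it in the pathway, averaged 1352 ± 196 and 1311 ± 54.3, and its log2 fold change of -0.035 was 0.06 without alone library 1.

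In the non-oxidative branch, which links pentoses back to glycolysis, all 4 tested enzymes had negative values. Rpe, the ribulose phosphate epimerase, stood at 1438, 1415, 1452 and 1479 normalized counts alone and at 1350, 1387, 1351 and 1363 in the co-cultures. Every co-culture was below every alone library, with a fitted difference of -5.75% (95% interval -10.6 to -0.678%), and the limma adjusted p was 0.14. With weights per library Rpe was called lower (adjusted p = 0.036). The transaldolase Taldo1 averaged 4188 ± 317 and 3906 ± 140, the transketolase Tkt 19727 ± 1014 and 18959 ± 352, and the isomerase Rpia 1751 ± 95.8 and 1680 ± 14.4. Alone library 1 held the highest value of all 8 for each of these 3, and without it their log2 fold changes went from -0.10, -0.06 and -0.06 to -0.05, -0.02 and -0.02.

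Of 7 glycogen enzymes tested by symbol, 2 rose. Gys1, the glycogen synthase outside liver, stood at 1400, 1582, 1511 and 1535 normalized counts alone and at 1735, 1785, 1701 and 1733 in the co-cultures. The groups did not overlap, and the rise of 15.5% (log2 fold change 0.21, SE 0.04, limma adjusted p = 0.0129) stayed called with any 1 library left out (adjusted p up to 0.0497). Pgm1, which interconverts glucose 6-phosphate and glucose 1-phosphate, stood at 4262, 3962, 4082 and 4112 alone and at 4636, 4527, 4525 and 4583 in the co-cultures. It rose by 11.3% (log2 fold change 0.15, SE 0.03, limma adjusted p = 0.0123). Leaving out co-culture 1 ended that call (adjusted p = 0.0529). Between them in the pathway lies Ugp2, which makes UDP-glucose, with 1725 ± 135 and 1778 ± 62.7 normalized counts (95% interval -5.23 to 12.4%). Its log2 fold change of 0.046 was 0.093 without alone library 1 (limma adjusted p = 0.0708).

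The branching enzyme Gbe1 averaged 1566 ± 64.2 and 1653 ± 109 normalized counts, and Pgm2, a mutase that also acts on pentose phosphates, 1916 ± 60.4 and 1935 ± 27.7. Glycogenin Gyg1, which primes the polymer, ran from 1947 to 2142 alone and from 1947 to 2019 in the co-cultures. Its log2 fold change of -0.06 (limma adjusted p = 0.36) was called lower without alone library 1 (-0.09, adjusted p = 0.0363). The brain type glycogen phosphorylase Pygb, which breaks glycogen down, averaged 6667 ± 97.5 and 6515 ± 71.7 (95% interval -6.34 to 1.98%). The liver type Pygl, matched through RefSeq, was at 650, 656, 606 and 685 alone and at 680, 669, 712 and 706 in the co-cultures (95% interval -1.21 to 15.1%, adjusted p = 0.266). Gfpt2, an enzyme of hexosamine entry, had only 13 to 34 reads per library, with 26.0 ± 6.33 and 20.2 ± 4.36 normalized counts, and its interval ran from -43.8 to 9.91%.

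Isoenzymes of a step were set against each other within each library, as log2 ratios of normalized counts, with no test. Only the shift of such a ratio between groups is informative here, since lengths were not used. The ratio of Hk2 to Hk1 was -0.93, -0.91, -0.96 and -0.87 in alone libraries 1 to 4 and -0.79, -0.77, -0.78 and -0.79 in the co-cultures, a shift of 0.13 towards Hk2 without overlap. For Pfkm to Pfkl the mean moved from -2.62 (SD 0.04) to -2.76 (SD 0.06) and the groups did not overlap, whereas Pfkp to Pfkl, at -3.23 (SD 0.07) and -3.30 (SD 0.04), did. Pgm2 to Pgm1 moved from -1.10 (SD 0.05) to -1.24 (SD 0.03) without overlap. Pygl to Pygb moved the other way, from -3.36 (SD 0.06) to -3.23 (SD 0.04), and the highest alone library, at -3.29, lay just under the lowest co-culture, at -3.27. Eno2 to Eno1 went from -6.20 (SD 0.08) to -6.34 (SD 0.09) with overlap. The shifts of Pfkm to Pfkl and of Pgm2 to Pgm1 largely repeat the rises of Pfkl and Pgm1 given above. Pfkm and Pgm2 themselves had log2 fold changes of -0.024 and 0.015.

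**Figure D4:**
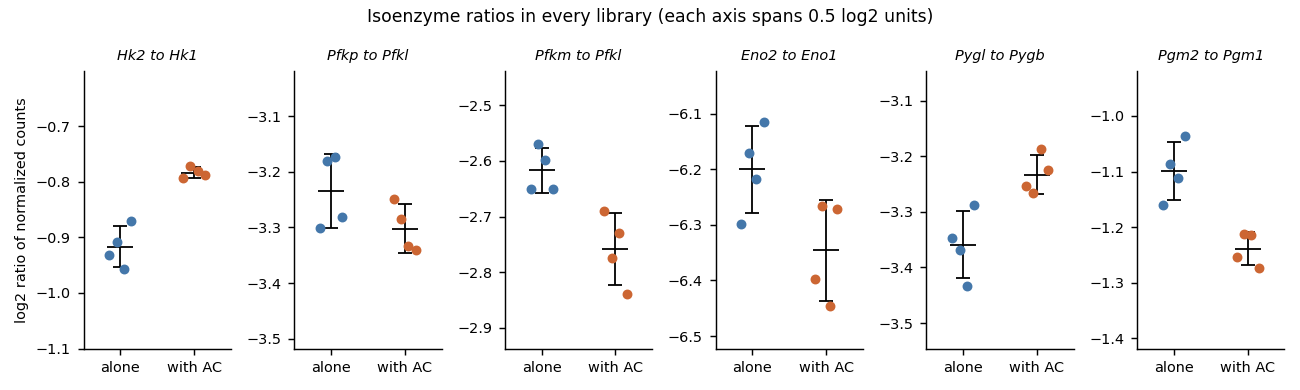
Log2 ratio of the normalized counts of 2 enzymes of the same step in every library (points), beside group means and SDs (n = 4; AC, apoptotic cells), on axes that each span 0.5 log2 units. Hk2 to Hk1 shifts up from a mean of -0.92 to -0.78 and Pgm2 to Pgm1 down from -1.10 to -1.24.

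Other genes of the same pathways came from lists that leave out the enzymes above. In all, 4 of 73 tested rose and 5 fell, 5.48 and 6.85%, close to the shares of all tested genes (6.36 and 5.31%). Without alone library 1, 13 rose and 12 fell, 17.8 and 16.4%, beside 13.4 and 12.5% of all genes. Genes named below for a call gained without that library were chosen after their values were seen. With all libraries, none of 13 further genes of glycolysis and gluconeogenesis and none of 15 further glycogen genes was called by limma, with 2 and 0 higher and 1 and 2 lower at an unadjusted p under 0.05. At that unadjusted level 1842 of all 13494 tested genes were higher and 1729 lower. Without alone library 1, Pgam5, Bpgm and Gpd2 of the first list were called higher (limma adjusted p = 0.00607, 0.0106 and 0.0379) and Pck2 lower (adjusted p = 0.0145). In the same fit 3 glycogen genes were called lower, namely Gaa, Pgm5 and Phkb (limma adjusted p = 0.00342, 0.0081 and 0.0274). Prpsap2, an associated protein of the ribose phosphate pyrophosphokinases that use ribose 5-phosphate, was the only one of 9 further pentose phosphate genes called with all libraries, with a mean of 368 ± 12.3 alone and 437 ± 12.2 in the co-cultures (SD, n = 4), a log2 fold change of 0.25 and a limma adjusted p of 0.0113. Without alone library 1, Prps1 was also called higher (adjusted p = 0.0123) and H6pd lower (adjusted p = 0.00359). None of 6 fructose and polyol genes was called with all libraries or without alone library 1, and with all libraries none had an unadjusted p under 0.05.

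Past the entry step of the hexosamine route, 4 of 17 tested genes of hexosamine and sugar nucleotide metabolism fell with all libraries (23.5%, beside 5.31% of all tested genes) and none rose (6.36% of all tested genes). At an unadjusted p under 0.05, 2 of the 17 were higher and 5 lower, beside 1842 and 1729 of all 13494 tested genes. The absence of higher calls turned on alone library 1. Without it 5 fell, Ogt being added (limma adjusted p = 0.00169), and 4 rose, namely Uap1, Galk1, Mpi and Gmppb (adjusted p = 0.000293, 0.000206, 0.00758 and 0.0297), or 29.4 and 23.5% beside 12.5 and 13.4% of all genes. Gnpda1, a deaminase that returns glucosamine 6-phosphate to glycolysis, stood at 1014, 1074, 1014 and 1040 normalized counts alone and at 790, 861, 814 and 814 in the co-cultures (log2 fold change -0.34, SE 0.04, limma adjusted p = 0.000922). Every co-culture was below every alone library. Mgea5, the O-GlcNAcase, went from 2345 ± 38.7 to 2069 ± 26.3 (log2 fold change -0.18, SE 0.03, adjusted p = 0.00522). The deacetylase Amdhd2 (-0.28, adjusted p = 0.0123) and Uap1l1 (-0.18, adjusted p = 0.0255), named after their values were seen, were the other two. The Uap1l1 call was lost without alone library 3 or any co-culture (adjusted p = 0.0504 to 0.0785).

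Of 13 tested regulators of these enzymes 3 rose (23.1%, beside 6.36% of all tested genes) and 1 fell (7.69%, beside 5.31%). Without alone library 1, Akt1 was also called higher (limma adjusted p = 0.0493) and Arnt lower (adjusted p = 0.0341), which made 4 and 2. These were 30.8 and 15.4%, beside 13.4 and 12.5% of all genes tested that way. Hif1a, the oxygen-regulated subunit of the hypoxia factor, stood at 3674, 3875, 4033 and 3959 normalized counts alone and at 4511, 4380, 4737 and 4458 in the co-cultures (log2 fold change 0.22, SE 0.04, limma adjusted p = 0.00604). Nfe2l2, the factor NRF2 known to drive pentose phosphate genes, went from 6580 ± 52.8 to 5843 ± 84.9 (log2 fold change -0.17, SE 0.03, adjusted p = 0.00343). The groups did not overlap in either gene. Txnip (0.28, adjusted p = 0.0129), which restrains glucose uptake, and Mlx (0.175, adjusted p = 0.0229), the partner of glucose-sensing factors, were named after their values were seen. The Mlx call was lost with any library other than alone library 1 left out (adjusted p = 0.0536 to 0.0768).

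**Figure D5:**
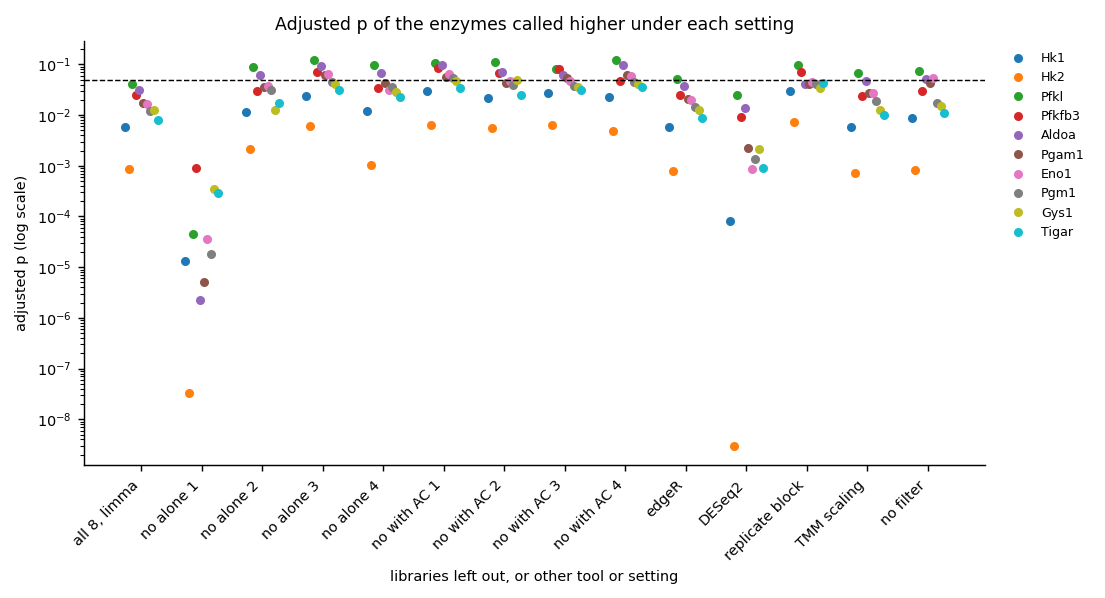
Adjusted p, on a log axis, of the 9 enzymes called higher and Tigar with all 8 libraries, with each library left out, and with other tools or settings (AC, apoptotic cells), with a dashed line at 0.05. Hk2, Hk1, Gys1 and Tigar lie under the line throughout, and Pfkl is above it in most settings, at 0.0816 to 0.122 with any library but alone library 1 left out.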

How the data were processed

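RNA was sequenced from 8 cultures, 4 of LR73 cells alone and 4 with apoptotic Jurkat cells, as mRNA libraries, per the labels' protocols. The submitters' processing notes list 4 tools (FastQC, STAR, featureCounts, DESeq2) and give neither versions nor roles, and the genome build is not given in the sources used here. The deposited table of the authors holds a signal per gene and library, the read count divided by 1 size factor per library. Multiplied back, all values were whole reads within 0.01 reads. It also holds the authors' log2 fold changes with standard errors, a test statistic (a score deposited by the authors) and the authors' deposited p-values. The row without a gene name, 0.14 to 0.176% of reads, was left out. How the authors treated reads of human RNA is not given in the sources used here.

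Log2(normalized count + 1) of the 13494 genes with a mean of at least 10 was fitted on group with limma 3.58.1 (trend) in R 4.3.3. P-values were adjusted over all tested genes by the Benjamini-Hochberg method and called under 0.05, and fold changes are on that log2 scale. On the recovered reads, edgeR 4.0.16 (quasi-likelihood) and DESeq2 1.42.0 were run as alternatives, beside other pseudocounts, filters, TMM scaling, array weights, a replicate block and leaving out each library. The scripts were tested on simulated data. Figures were drawn with matplotlib 3.10.9.

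Enzymes were taken by symbol, and missing ones were looked up in RefSeq genes (CriGri-PICRH-1.0). The members and lists were chosen with earlier results of these data known. Values are given in every library for each enzyme called and for Hk1, Pfkl, Gapdh, Pkm, Pgd and Gys1, and of each other pathway list the 2 called genes with the smallest adjusted p are named. A listed enzyme and a listed T cell marker are not reported here. Promoter and protein sequences were not used here.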

Additional observations from a re-analysis of the deposited data

Results flagged for a closer look

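In 66 groups of 4 libraries examined, 1 group per enzyme and condition, 3 had 1 library far from the other 3 by Dixon's criterion at the 95% level, which chance gives in about 1 of 20 groups. Pgls was at 1646 normalized counts in alone library 1, with 1275 the nearest and 1233 the farthest of its group. Taldo1 was at 4660 in the same library, with 4088 the nearest and 3995 the farthest. Pgm2 was at 1894 in co-culture 4, with 1945 the nearest and 1954 the farthest.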

How the results depend on the processing

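Over all genes, 858 higher and 716 lower calls became 498 and 400 with a replicate block and 1804 and 1674 with array weights, and 416 to 1811 higher and 356 to 1694 lower with 1 library left out. Enzymes called higher numbered 3 to 11 with 1 library left out, 11 with array weights, 7 with the block, 6 without a filter, 8 with TMM scaling or edgeR and 9 with DESeq2, and enzymes called lower 0 to 2 with 1 library left out and 2 with array weights. Of the other pathway genes, 2 were higher with the block, 13 with array weights and 3 to 13 with 1 library left out, and 11 were lower with array weights and 4 to 12 with 1 left out. The sign turned for Pfkfb1 (-0.051 to 0.044 with 1 library left out), Eno2 (-0.040 to 0.025) and Pgls (-0.076 to 0.063, and 0.055 with array weights). Of 577 enzyme values under alternatives, 529 kept direction and side of the threshold, 33 were weaker, 8 stronger and 7 reversed. Most of the 577 belong to the 24 of 34 enzymes not called in the main fit, which had no call to lose. The 33 weaker values were all lost calls, of Pfkl, Aldoa, Pfkfb3, Pgam1, Eno1 and Pgm1. The cause was not tested, and all of these alternatives were planned. Same-numbered libraries had deviations correlated by -0.0898 to 0.0682, so no clear shared deviation by number was seen, and not every library correlated best with its own number. Such correlations cannot tell whether the cultures were set up in pairs. With the block, the enzymes Pfkl (adjusted p = 0.0955) and Pfkfb3 (adjusted p = 0.0703) and, of the other pathway genes, Prpsap2 and Uap1l1 (both 0.0532) and Mlx (0.0611) lost their calls. Re-matching through RefSeq made 10 of 34 higher. The ratio of Gfpt2 to Gfpt1 and the promoter motif count were not run. Depth limits Gfpt2 (13 to 34 reads) and Aldoc (0 to 8 reads).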
